A study of Mus musculus with 6 samples.

Results

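The mesenchyme of the fetal mouse intestine was examined for the genes that went up or down with the number of Pdgfra transcripts counted in a cell. The cells were 3265 of the 13127 in the deposited matrix. They were the cells of 2 barcode suffixes, called set 1 (1678 cells) and set 2 (1587 cells), that had at least 1000 detected genes, at most 5% mitochondrial transcripts and at least 10000 unique molecular identifiers (UMIs, the counted transcript molecules). Within each set they were divided by their Pdgfra count into cells with 0, with 1 to 3 and with 4 or more Pdgfra UMIs. The classes were compared within quintiles of total UMIs, so that cells of closer depth were set against each other.

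The study captured single cells of small intestine from C57/BL6 embryos carrying the Pdgfra-H2BGFP reporter, in which nuclear GFP marks cells using the Pdgfra locus, at embryonic days E13.5, E14.5, E15.5, E16.5 and E18.5. Replicates were pooled (4, 3, 2, 2 and 2 in order of age), and each gut was cut along its length into 3, 5, 10, 15 and 20 segments. The 6 samples form 4 groups: 2 captures of all live cells (negative for DAPI and Ter119) of E15.5 and E16.5, 1 capture of enriched cells of these ages (positive for CD31, CD45 or Epcam, or high for the GFP), and the same pair of groups, with 2 and 1 captures, for E13.5, E14.5 and E18.5. All groups carry the reporter, and its zygosity is not given in the sources used here. No label ties a suffix to a sample, so the ages in either set are not known, that the cells came from captures of all live cells is a reading of the data and not of a label, and the matrix counts as 1 pooled sample. No p-value was computed for this reason. Intervals of 95% cover counting error only, and likeness of the sets shows at most repeatability between captures, not between embryos.

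Pdgfra encodes a receptor tyrosine kinase that binds PDGF ligands. In the fetal gut the epithelium releases PDGF-A and Hedgehog proteins, and mesenchymal cells with much Pdgfra gather under the epithelium where villi form. Such cells are known for BMP ligands, Hedgehog response and slow division, while cells deeper in the wall carry less Pdgfra and make much of the fibrous matrix.

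Nearly all cells held mesenchymal transcripts. Col3a1 was found in 100% and 99.9% of cells in sets 1 and 2, Col1a1 in 99.7% and 99.9% and Vim in 99.5% and 99.8%. Of the mesenchymal transcription factors, Twist2 was found in 22.3% and 23.6% of cells and Prrx1 in 0.954% and 0.189%, so Prrx1 was close to absent at this depth. The epithelial marker Epcam stood at 11.9 and 13.3 UMIs per 1000000 UMIs counted (CPM), the endothelial marker Pecam1 at 1.73 and 1.65 CPM and the leukocyte marker Ptprc at 0.522 and 1.29 CPM. By cells, Epcam was found in 257 of 1678 in set 1 and 294 of 1587 in set 2, against 375 and 374 for Twist2. Pecam1 was found in 41 and 37 cells and Ptprc in 11 and 16. Epcam UMIs were therefore low in level but not rare among cells, and their source was not tested. No marker on the epithelial, endothelial, blood or enteric neuron lists reached 20 CPM in the lowest or the highest class in both sets. The 5 enterocyte transcripts, which free RNA can bring into any droplet, summed to 437, 439 and 447 CPM in set 1 and 427, 431 and 438 CPM in set 2 over the classes of rising Pdgfra. That sum therefore differed little between classes. No cell barcode was shared by both sets, and no doublet caller was run.

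The Pdgfra classes themselves were chosen by the readout, and their levels are a description. In set 1 there were 295 cells with 0, 972 with 1 to 3 and 411 with 4 or more Pdgfra UMIs (17.6%, 57.9% and 24.5%). Set 2 had 368, 950 and 269 cells (23.2%, 59.9% and 17.0%). Standardised for depth, Pdgfra stood at 0, 126 and 366 CPM in set 1 and at 0, 112 and 322 CPM in set 2. The classes also differed in raw depth. Median UMIs were 13186, 14134 and 15342 in set 1 and 14274.5, 15435.5 and 17044 in set 2, which is why quintiles were used. Some difference in depth remained inside them. In the deepest quintile the medians at 0 and at 4 or more Pdgfra UMIs were 19148.5 and 19884.5 in set 1 and 20531 and 21583 in set 2. Median mitochondrial shares were close, 2.53%, 2.54% and 2.51% in set 1 and 2.69%, 2.68% and 2.64% in set 2.

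A cell with 0 Pdgfra UMIs can still hold Pdgfra transcripts, since only part of a cell's RNA is counted. Cells with 3 Pdgfra UMIs (238 and 198) had Bmp3 at 77.1 and 63.1 CPM, and those with 4 (163 and 127) at 85.0 and 92.0 CPM. Dcn stood at 409 and 267 CPM in the former and 248 and 216 CPM in the latter. The lowest UMI totals inside the rule were 10002 and 10000, and the highest below its limit were 9988 and 9990. Female-like cells, with Xist and no Y-linked UMIs, made up 32.5%, 25.8% and 26.8% of the classes in set 1 and 28.3%, 27.6% and 27.5% in set 2.

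**Figure D1:**
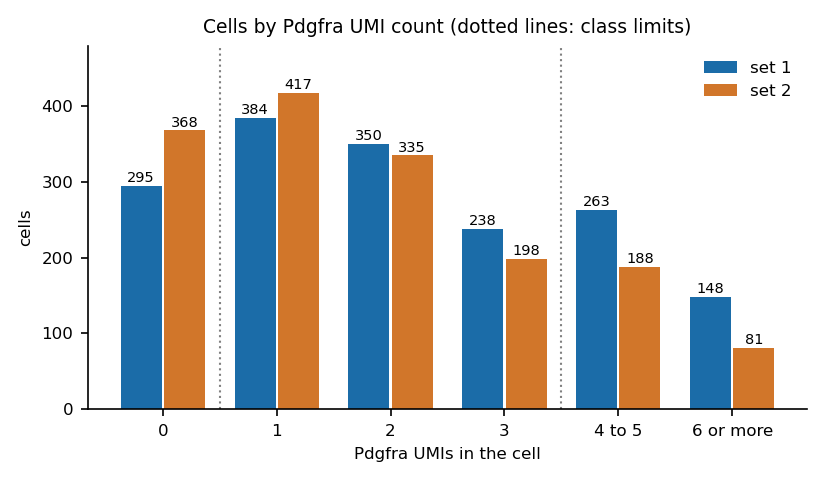
Number of cells (vertical axis) at each Pdgfra UMI count (horizontal axis) in set 1 (blue) and set 2 (orange); dotted lines part the classes. Most cells held 1 to 3 Pdgfra UMIs, 972 in set 1 and 950 in set 2.

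Of the other genes, 6637 had at least 20 CPM in the lowest or the highest class in both sets and were compared. A gene was called when the class with 4 or more Pdgfra UMIs differed from the class with 0 by 1.5-fold or more, in the same direction in both sets. Called higher were 45 genes (0.678% of those compared) and called lower were also 45 (0.678%). At 2-fold the counts were 8 and 13. Taken alone, set 1 had 109 genes higher and 71 lower by 1.5-fold, and set 2 had 104 and 90, and no gene passed 1.5-fold in opposite directions. Without regard to size, 2624 of the compared genes (39.5%) were higher in both sets and 1879 (28.3%) were lower in both, the shares against which such counts for gene lists are to be read. The median log2 ratio of all compared genes was 0.03 in set 1 and 0.02 in set 2, so most genes lay near 0. Across these genes the log2 ratios of both sets had a Pearson r of 0.61 and a Spearman rho of 0.50, given as a description because genes are not independent.

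For most called genes the middle class lay between the outer classes. Cells with 1 to 3 Pdgfra UMIs lay between the outer classes in both sets for 40 of the 45 genes called higher and 42 of the 45 called lower, against 30.4% of all compared genes. In the middle class the genes called higher had gone a median of 43.0% (set 1) and 38.6% (set 2) of the way on the log2 scale, and those called lower 49.7% and 54.7%. In each direction, 22 of the 45 genes differed the same way in all 10 combinations of set and quintile. These shares describe genes chosen for their difference between the outer classes. Such a gap leaves room for a middle value that most compared genes lack, so the 30.4% is not a like standard. Whether the change is graded in single cells was not tested.

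**Figure D2:**
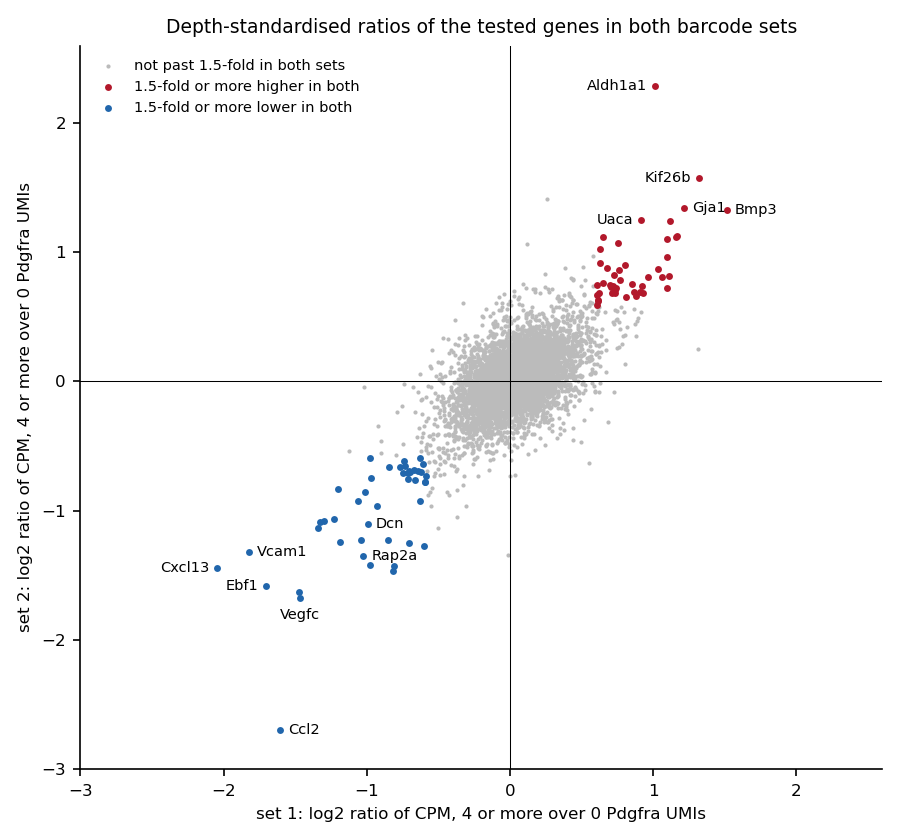
Log2 ratio of CPM at 4 or more over 0 Pdgfra UMIs in set 1 (horizontal axis) and set 2 (vertical axis), 1 point for each of 6637 genes. The 45 genes called higher (red) and 45 called lower (blue) sit at opposite corners, with Bmp3 and Kif26b among the first and Ccl2 and Cxcl13 among the second.

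Among the PDGF genes themselves little else moved. Pdgfa, the ligand with enough counts, stood at 74.3, 90.4 and 88.9 CPM in set 1 and 83.2, 92.5 and 92.8 CPM in set 2 at 0, 1 to 3 and 4 or more Pdgfra UMIs, the order of classes used for every triplet below. Pdgfrb, the sister receptor of pericytes and fibroblasts, stood at 106, 109.8 and 105 CPM in set 1 and 98.2, 96.3 and 86.8 CPM in set 2. Neither passed 1.5-fold, and the remaining ligands and Pdgfrl were under 20 CPM. Of 10 compared genes of receptor tyrosine kinase feedback, which sense the strength of such signals, none was called. Spry1, an inhibitor of the pathway, had log2 ratios of 0.44 (95% interval 0.20 to 0.68) in set 1 and 0.37 (0.14 to 0.60) in set 2, while Dusp6, a phosphatase that acts on ERK, had 0.06 and 0.13. None of 13 immediate early genes was called, and 8 were lower in both sets (28.3% of all compared genes were). Fos, a subunit of the AP-1 transcription factor, went from 625 to 488 CPM and from 718 to 476 CPM between the outer classes.

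BMP ligands are secreted factors of the TGF-beta superfamily. All 5 compared ligands were higher in both sets and 2 were called, with a list median of 0.44 and 0.63 on the log2 scale in sets 1 and 2. Without cells holding 3 or more UMIs of the PDGFRA-high marker list described below, the mean of both medians was 0.11 in place of 0.53. Bmp3, known as an atypical ligand that can oppose other BMPs, stood at 40.9, 64.2 and 117 CPM in set 1 and 46.5, 55.6 and 116 CPM in set 2. This was the gene with the highest ratio in set 1, 2.86-fold and 2.5-fold in the sets, with log2 ratios of 1.52 (95% interval 1.27 to 1.76) in set 1 and 1.32 (1.10 to 1.55) in set 2. Its level had climbed further among cells with 6 or more Pdgfra UMIs, to 169 and 181 CPM. Bmp5 stood at 31, 41.5 and 52.8 CPM in set 1 and 29.8, 40.1 and 51.4 CPM in set 2, with log2 ratios of 0.77 and 0.78, and was higher in all 10 combinations of set and quintile.

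The other ligands differed less. Bmp7 went from 14.9 to 20.3 and from 14.2 to 22 CPM. Bmp4, a Hedgehog-induced ligand of gut mesenchyme, had log2 ratios of 0.26 (95% interval 0.16 to 0.35) in set 1 and 0.02 (-0.08 to 0.12) in set 2, so that in set 2 the interval included 0. Among 11 compared receptors, antagonists and targets of BMP signalling, Fst alone was called. Fst encodes follistatin, which binds activins and some BMPs, and stood at 21.4, 35.6 and 48.1 CPM in set 1 and 25.1, 35.8 and 54.7 CPM in set 2, or log2 ratios of 1.17 (95% interval 0.81 to 1.52) in set 1 and 1.12 (0.80 to 1.45) in set 2. In the lowest class the 10% of cells with most UMIs held 93.0% and 79.6% of those of Fst, a spread that the intervals leave out. Levels of Id1 and Id3, which BMP signals induce, had log2 ratios of -0.03 and 0.19 and of -0.10 and -0.04. Id4 was lower in all 10 combinations, at 28.1, 18.4 and 12.9 CPM in set 1 and 22.1, 19.5 and 15.2 CPM in set 2, yet its log2 ratio of -0.53 in set 2 missed 1.5-fold.

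Of 10 compared members of the Hedgehog pathway, which include co-receptors, transducers and targets, 8 were higher in both sets and 2 were called, with list medians of 0.39 and 0.30. Ptch1, the Hedgehog receptor and itself a target, stood at 392, 451 and 535 CPM in set 1 and 334, 387 and 464 CPM in set 2. Its log2 ratios were 0.45 (95% interval 0.36 to 0.54) in set 1 and 0.48 (0.38 to 0.57) in set 2, and it was higher in all 10 combinations. Gas1, a membrane co-receptor for Hedgehog, was called, at 82, 119.7 and 160.4 CPM in set 1 and 90.3, 123 and 158 CPM in set 2 and log2 ratios of 0.97 (95% interval 0.78 to 1.15) in set 1 and 0.81 (0.64 to 0.98) in set 2. Foxl1, a forkhead factor of subepithelial mesenchyme, was also called and stood at 16.3, 23.7 and 30.9 CPM in set 1 and 15.7, 19.8 and 26.2 CPM in set 2.

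Most other members pointed the same way with smaller ratios. Foxf1 and Foxf2, forkhead factors that Hedgehog maintains in gut mesenchyme, had log2 ratios of 0.25 and 0.26 and of 0.46 and 0.35, and each was higher in all 10 combinations. Hhip, a decoy that binds Hedgehog, had 0.60 and 0.40. Gli1, commonly used as a target of the pathway, had 0.24 (-0.01 to 0.49) and 0.09 (-0.16 to 0.33), intervals that included 0. The 2 members lower in both sets were Gli2, a transcription factor of the pathway, with -0.16 and -0.43, and Smo, its signal transducer, with -0.11 and -0.14. Summed over the pathway, the ratio was above 0 in all 5 quintiles of both sets.

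Of 6 compared WNT genes only Wnt5a was called. Wnt5a, a ligand that acts mostly without beta-catenin and shapes the elongating gut, stood at 88.6, 129 and 148 CPM in set 1 and 102, 129.5 and 169 CPM in set 2, and was higher in all 10 combinations. Its log2 ratios were 0.74 (95% interval 0.56 to 0.93) in set 1 and 0.72 (0.56 to 0.89) in set 2. Sfrp1, a secreted WNT antagonist, was higher in all 10 combinations too, with log2 ratios of 0.44 and 0.23. Of 6 Notch genes Dll1 was called, a ligand displayed on the cell surface, at 14.2, 23.2 and 30.9 CPM in set 1 and 16, 25.2 and 37.9 CPM in set 2 and log2 ratios of 1.12 (95% interval 0.69 to 1.55) in set 1 and 1.24 (0.85 to 1.64) in set 2. The receptors Notch1, Notch2 and Notch3 had log2 ratios between -0.27 and 0.07. All 5 compared TGF-beta genes were higher in both sets and none was called.

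Genes of retinoic acid synthesis parted company. Aldh1a1 stood at 13.2, 22.4 and 26.8 CPM in set 1 and 8.69, 20.5 and 42.4 CPM in set 2, with log2 ratios of 1.02 (95% interval 0.55 to 1.48) in set 1 and 2.29 (1.79 to 2.79) in set 2, and those intervals do not overlap. In cells thinned to 10000 UMIs the mean of both ratios was 0.87 in place of 1.65. Aldh1a2, the main enzyme of this step in embryonic mesenchyme, had 0.50 and 0.50 and was not called, whereas Aldh1a3 was called lower with -0.66 and -0.76. In the insulin-like growth factor axis, Igf1 was called lower at 84.1, 60.1 and 36.9 CPM in set 1 and 85.5, 54.2 and 36.2 CPM in set 2, while Igf2, the main fetal ligand, was higher in both sets by 0.40 and 0.35 on the log2 scale. Igfbp7, a secreted binding protein, was called lower at 215, 140.2 and 107 CPM in set 1 and 183, 120.0 and 101 CPM in set 2. Of 12 axon guidance genes 1 was called, Epha4, an ephrin receptor, with 0.63 and 0.92. Of 17 mesenchymal transcription factors, Zeb1 was called higher with 0.70 and 0.74, and Nfix and Ebf1 lower.

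**Figure D3:**
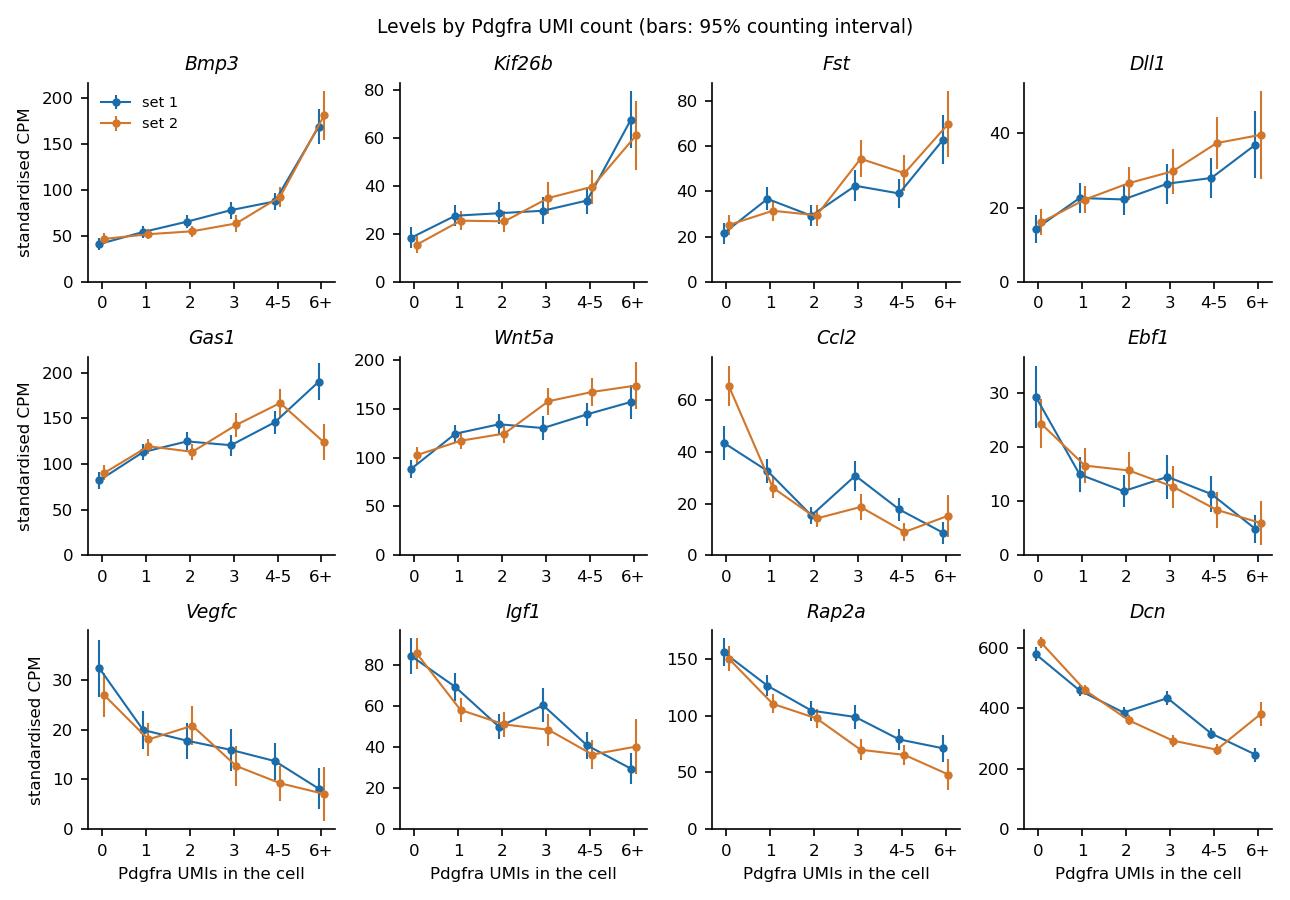
Depth-standardised CPM (vertical axis) of 12 named genes in cells with 0, 1, 2, 3, 4 to 5 and 6 or more Pdgfra UMIs (horizontal axis), in set 1 (blue) and set 2 (orange); bars are 95% counting intervals. Bmp3 reached 169 and 181 CPM at 6 or more Pdgfra UMIs, and Rap2a was lower at each step in both sets.

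Several genes of cell structure and contact were among the 15 with the largest ratios. Kif26b, a kinesin family member needed for kidney development, stood at 18.4, 28.6 and 46 CPM in set 1 and 15.4, 27.5 and 45.9 CPM in set 2, which was 2.5-fold and 2.98-fold higher. It was higher in all 10 combinations, with log2 ratios of 1.32 (95% interval 0.94 to 1.70) in set 1 and 1.58 (1.19 to 1.96) in set 2. Gja1, the gap junction protein connexin 43, stood at 16.1, 16.5 and 37.4 CPM in set 1 and 13.9, 17.7 and 35.3 CPM in set 2, so the middle class lay close to the lowest. Cadm1, an adhesion molecule, went from 16.1 to 34.5 and from 15.4 to 30.1 CPM. The membrane collagens Col13a1 and Col23a1 were called higher with log2 ratios of 1.10 and 1.10 and of 0.81 and 0.90. Uaca, a protein of ankyrin repeats and coiled coils, had 0.92 and 1.25.

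Gadd45a, a gene induced by DNA damage and growth arrest, stood at 20.6, 22.2 and 46.2 CPM in set 1 and 21, 24.7 and 45.5 CPM in set 2. Plk2, a polo-like kinase, went from 20.8 to 42.7 and from 23.5 to 42.9 CPM, and Trp53i11, a p53-induced gene, from 12.5 to 27 and from 14.3 to 25.3 CPM. Ednrb, the endothelin B receptor, stood at 129, 155 and 269 CPM in set 1 and 128, 149.9 and 225 CPM in set 2, with log2 ratios of 1.06 (95% interval 0.92 to 1.20) in set 1 and 0.81 (0.67 to 0.96) in set 2. Ednrb is also on the list of glial markers. Of the other members, Sox10 went from 2.89 to 2.66 and from 1.63 to 1.3 CPM and Fabp7 from 19.6 to 20.0 and from 20.9 to 22.8 CPM. Among cycle inhibitors Cdkn1c, which encodes p57, was higher in all 10 combinations with log2 ratios of 0.49 and 0.48 and was not called.

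As a sum, markers of the Pdgfra-high cells at villus clusters were also higher with more Pdgfra. The 15 markers, of which 12 were under the CPM minimum, summed to 117, 127 and 171 CPM in set 1 and 112, 126 and 179 CPM in set 2. None was at 0 UMIs in the highest class. The 3 compared markers, Nrg1, Foxl1 and Bmp7, made up most of the sum and most of its rise in both sets. The sum therefore says little of the 12 rarer markers. Nrg1, a growth factor of the EGF family and 1 of the 3 compared markers, stood at 52.4, 60.0 and 78.5 CPM in set 1 and 49.6, 63.6 and 83 CPM in set 2, just short of the call in set 1 with a log2 ratio of 0.58. Fgf9, 1 of the 12 rarer markers and picked after its values were seen, had 4 and 1 UMIs in the lowest class and 49 and 27 in the highest. These are raw counts from classes with 4086115 and 5388927 UMIs in all at 0 and 6476627 and 4556769 at 4 or more. It does not stand for the other rarer markers, whose single values are not given here. Cells with 3 or more UMIs of the marker list made up 21.4%, 28.7% and 35.0% of the classes in set 1 and 23.4%, 29.7% and 38.7% in set 2. Standardised for depth, these shares were 24.4%, 30.2% and 34.2% in set 1 and 25.8%, 31.5% and 38.3% in set 2.

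Leaving those cells out divided the genes called higher. The mean log2 ratio of both sets was then 0.53 for Bmp3 in place of 1.42, 0.12 for Ednrb in place of 0.94 and 0.17 for Gadd45a in place of 1.14. Uaca fell to 0.56, Plk2 to 0.49, Trp53i11 to 0.40, Dll1 to 0.82 and Gja1 to 0.80. Kif26b at 1.35, Fst at 1.36, Gas1 at 1.12 and Aldh1a1 at 1.89 were as large as or close to their values in all cells, which were 1.45, 1.15, 0.89 and 1.65. Of the 45 genes, 19 were still called. Since the list holds Foxl1, Bmp7 and Nrg1, a narrower filter was tried after seeing this, which left out cells with 2 or more UMIs over 8 rarer markers. Then 30 of the 45 were still called, Bmp3 had 1.06, Ednrb 0.63 and Gadd45a 0.67.

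Among the genes lower with more Pdgfra, Ccl2, a chemokine that attracts monocytes, stood at 43.5, 25.5 and 14.3 CPM in set 1 and 65.3, 19.4 and 10.1 CPM in set 2, 3.04-fold and 6.47-fold lower, with log2 ratios of -1.61 (95% interval -1.98 to -1.23) in set 1 and -2.69 (-3.12 to -2.27) in set 2. Cxcl13, a chemokine that attracts B cells, stood at 186, 108 and 45 CPM in set 1 and 131, 89.6 and 47.9 CPM in set 2, with -2.04 (95% interval -2.26 to -1.82) in set 1 and -1.45 (-1.69 to -1.20) in set 2. These were 2 of 5 compared chemokine genes, and Cxcl12, which was lower by less, had -0.37 and -0.31. Vcam1, a surface ligand for leukocyte integrins, stood at 52.6, 21.6 and 14.9 CPM in set 1 and 28, 18.2 and 11.2 CPM in set 2 and was lower in all 10 combinations. Nfkbia, an inhibitor and target of NF-kB, went from 139 to 84.7 and from 157 to 93.4 CPM. It was named after its values were seen.

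The UMIs of Ccl2 and Cxcl13 sat in few cells. In the lowest class the 10% of cells with most UMIs held 83.6% and 93.0% of those of Ccl2 and 82.4% and 74.2% of those of Cxcl13, and single cells held up to 24 and 37 Ccl2 UMIs. Ccl2 in particular rests on 60 and 57 positive cells there. Markers of blood cells moved with these genes at a low level: their 8 members summed to 24.2 CPM at 0 and 18.1 CPM at 4 or more Pdgfra UMIs in set 1 and to 31.0 and 18.6 CPM in set 2, with none at 0 UMIs in the highest class, and the part of such cells in the result was not tested. Endothelial markers summed to 28.8, 26.9 and 25.6 CPM and 31.0, 29.9 and 26.0 CPM.

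Vegfc, the growth factor of lymphatic vessels, stood at 32.4, 18.3 and 11.7 CPM in set 1 and 26.9, 17.7 and 8.4 CPM in set 2. It was lower in all 10 combinations, with log2 ratios of -1.47 (95% interval -1.89 to -1.04) in set 1 and -1.68 (-2.23 to -1.13) in set 2. Igf1, described above, had -1.19 (95% interval -1.45 to -0.93) in set 1 and -1.24 (-1.52 to -0.96) in set 2 and was also lower in all 10. Ebf1, a transcription factor of stromal and B cell development, stood at 29.3, 13.6 and 8.99 CPM in set 1 and 24.3, 15.7 and 8.09 CPM in set 2, with -1.70 (95% interval -2.16 to -1.25) in set 1 and -1.59 (-2.12 to -1.05) in set 2. It was lower in 9 of the 10 combinations. Ebf1 rested on 35 and 57 positive cells in the lowest class. The 10% of cells with most UMIs held 95.3% and 83.3% of its UMIs there, a spread that the intervals leave out. Without cells holding a Mki67 or Top2a UMI, which left 59 and 97 cells in the lowest class and 71 and 42 in the highest, the mean ratio of Ebf1 was -0.08 and that of Ccl2 -0.75, in place of -1.64 and -2.15.

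Signalling and membrane genes made up the rest of the 15 smallest ratios. Rap2a, a small GTPase of the Ras family, was lower step by step in both sets, at 156, 111 and 76.7 CPM in set 1 and 150.4, 97.1 and 58.8 CPM in set 2. Rasgrp2, an exchange factor for Rap proteins, went from 31.8 to 12.7 and from 29.8 to 14.1 CPM. P2ry14, a receptor for UDP-sugars, went from 41.7 to 16.9 and from 37.4 to 17.7 CPM. Sept4, a septin, had log2 ratios of -1.04 and -1.23, and Clca3a1, of the chloride channel accessory family, -0.98 and -1.42. Over all alternatives the mean ratio of Rap2a stayed between -1.47 and -1.03.

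Matrix genes were divided. Of 30 compared matrix proteins and remodelling enzymes 4 were called lower and none higher, with list medians of -0.07 and -0.26. Dcn, the collagen-binding proteoglycan decorin, stood at 579, 424 and 290.5 CPM in set 1 and 617, 399 and 288 CPM in set 2, with log2 ratios of -0.99 and -1.10. Mgp, an inhibitor of calcification, went from 25.4 to 10.9 and from 26.9 to 12.9 CPM, and Aspn, a relative of decorin, from 39.1 to 22.4 and from 60.9 to 22.7 CPM. Lox, which crosslinks collagen, was the fourth, with -0.63 and -0.60. Sparc and Postn were lower in all 10 combinations without a call in both sets, with -0.45 and -0.62 and with -0.53 and -0.73. Vcan, a large proteoglycan of loose matrix, was higher in all 10 combinations with 0.47 and 0.50.

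Of 16 compared collagens 12 were lower in both sets, and only Col6a5, a chain of type VI collagen, was called lower. Col6a5 stood at 94.3, 57.1 and 37.2 CPM in set 1 and 77.7, 40.8 and 35.5 CPM in set 2. It rested on few cells, 44 and 55 in the lowest class, and the 10% of cells with most UMIs held 94.9% and 95.4% of its UMIs there, and its mean ratio turned to 0.97 with a minimum of 15000 UMIs. The type I chains Col1a1 and Col1a2 had log2 ratios of -0.57 and -0.55 and of -0.56 and -0.62, and Col3a1 had -0.10 and -0.12. Fndc1, a protein with fibronectin domains, had -1.47 (95% interval -2.03 to -0.92) in set 1 and -1.63 (-2.28 to -0.98) in set 2. Its UMIs too sat in few cells, with 84.2% and 80.1% of them in the top 10% of the lowest class. In the highest class 36 and 14 cells were positive.

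The summed markers of fibroblasts of the outer gut wall were lower too. This list shares members with the chemokine and matrix lists above, among them Cxcl13, Mgp and Aspn, so it is not a separate observation of them. Cxcl13 alone went from 186 to 45 CPM in set 1 and from 131 to 47.9 CPM in set 2. Of 9 compared members 6 were lower in both sets and 4 were called (Cxcl13, Mgp, Aspn and Shisa3), and the summed level of all 14 was 1234, 1036 and 932 CPM in set 1 and 1269, 1035 and 932 CPM in set 2. Gsn, an actin-severing protein, was the exception that was higher in both sets, at 0.56 and 0.39. How much of the difference in matrix and chemokine genes comes with a change in the share of such cells was not tested.

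These genes were also compared by depth. From the shallowest to the deepest quintile the log2 ratio of Dcn was -1.63, -1.42, -0.67, -0.18 and -0.03 in set 1 and -1.87, -1.14, -0.80, -0.26 and -0.14 in set 2. The summed outer-wall markers had ratios of -0.57, -0.67, -0.46, 0.11 and -0.15 in set 1 and -1.16, -0.57, -0.22, -0.06 and -0.05 in set 2. With a minimum of 15000 UMIs the mean ratio of Dcn was -0.23, that of Mgp -0.05, that of Cxcl13 -0.55 and that of Igf1 -0.63. Rap2a kept -1.19 and Vegfc -1.47 there. The mean ratio of Dcn also differed between cells with Xist and no Y-linked UMIs, at -1.615, and those with Y-linked and no Xist UMIs, at -0.51. Dcn, Igf1, Rap2a and Vegfc were lower in every quintile of both sets, and the ratio of Dcn lay nearest to 0 in the deepest. Whether the quintiles differ between one another was not tested.

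**Figure D4:**
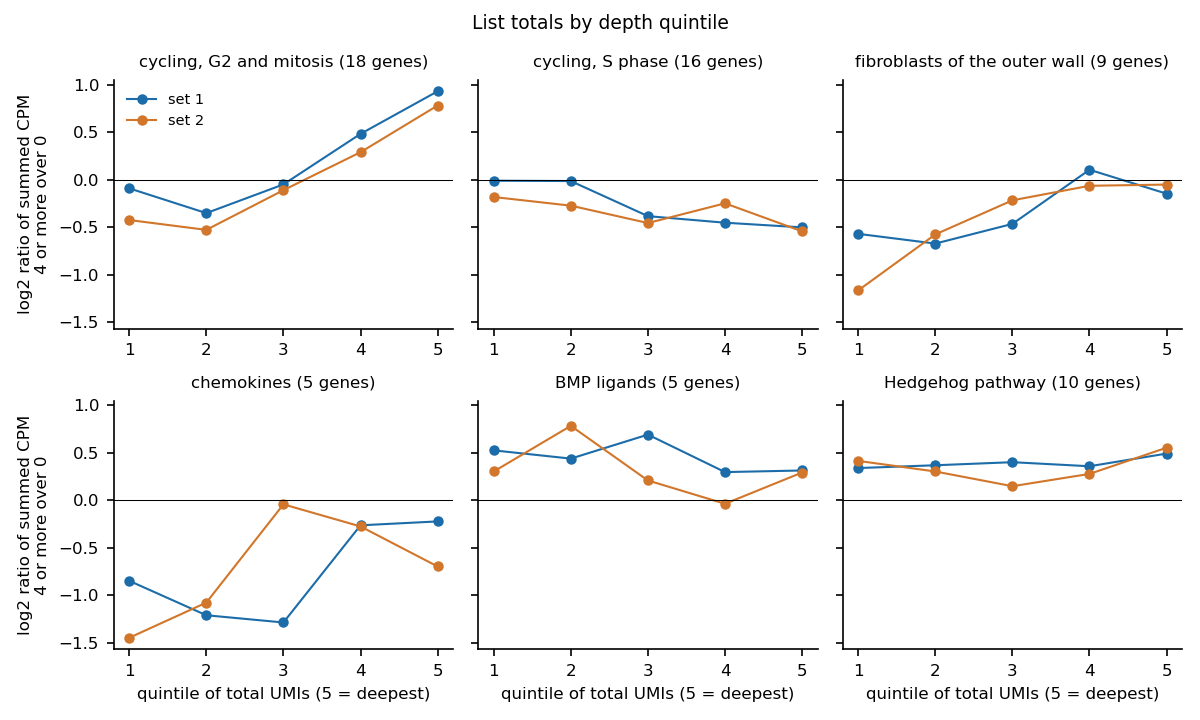
Log2 ratio of summed CPM at 4 or more over 0 Pdgfra UMIs (vertical axis) in each quintile of total UMIs (horizontal axis, 5 is deepest) for 6 gene lists, in set 1 (blue) and set 2 (orange). The Hedgehog genes lie above 0 in every quintile, whereas G2 and mitosis genes pass from -0.09 and -0.42 in the first quintile to 0.93 and 0.78 in the fifth.

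All 16 S phase genes, which make and license new DNA, were lower in both sets, with list medians of -0.34 and -0.39 and 1 call. The called gene, Ccne2, a cyclin of S phase entry, stood at 93.8, 93.8 and 62.5 CPM in set 1 and 97.4, 82.2 and 58.6 CPM in set 2. Pcna, the sliding clamp of DNA polymerase, stood at 247, 219.6 and 183 CPM in set 1 and 259.6, 229.9 and 173 CPM in set 2, and Mcm3, a subunit of the replicative helicase, had log2 ratios of -0.44 and -0.48. Of 18 genes of G2 and mitosis 17 were higher in both sets, with list medians of 0.53 and 0.45 and 1 call. Ube2c, which feeds ubiquitin to the anaphase-promoting complex, stood at 270.3, 306 and 449 CPM in set 1 and 242, 262 and 396 CPM in set 2. Cenpf, a kinetochore protein, had log2 ratios of 0.87 and 0.56, and Cdk1, the mitotic kinase and the 1 member not higher in both sets, had 0.13 and -0.04.

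Beyond the lists, several called genes are known for the same phases, and these were picked out after their values were seen. Among those higher, Cdc20, an activator of the anaphase-promoting complex, went from 81.2 to 133 and from 64 to 103 CPM, Bub1b, a checkpoint kinase, from 57.1 to 95.3 and from 53.5 to 85.8 CPM, and Cdc25b, a phosphatase of mitotic entry, from 14.2 to 23.1 and from 12.8 to 21.2 CPM. Among those lower, Tk1, thymidine kinase, went from 108 to 66.1 and from 112 to 69.6 CPM, E2f8, an atypical E2F factor, from 55.5 to 34.8 and from 52.5 to 32.6 CPM, and Chaf1b, a subunit of a histone chaperone, from 67.4 to 44.2 and from 66.2 to 42.5 CPM.

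The mitotic difference rested on the deepest cells. The summed G2 and mitosis genes had log2 ratios of -0.09, -0.35, -0.05, 0.48 and 0.93 over the quintiles of set 1 and -0.42, -0.53, -0.11, 0.29 and 0.78 over those of set 2. In the 2 deepest quintiles 18 and 18 of 18 genes were higher in set 1, and 15 and 18 in set 2. In the second quintile 13 and 17 of 18 were lower. Thinning every cell to 10000 UMIs and redrawing the classes gave a list median of 0.09, and leaving out the deepest quintile 0.13, in place of 0.49 as the mean of both sets. In cells with Xist and no Y-linked UMIs the list median was 0.11, and in those with Y-linked and no Xist UMIs 0.62. Without cells holding a Mki67 or Top2a UMI, a filter on members of this list, it was -0.03. The S phase median was -0.35 in thinned cells and -0.28 without the deepest quintile, in place of -0.36, and its summed ratios were below 0 in every quintile of both sets, by -0.01 in the 2 shallowest of set 1. The share of cells with a Mki67 or Top2a UMI, standardised for depth, was 85.5%, 83.8% and 80.8% in set 1 and 82.3%, 84.4% and 83.8% in set 2.

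Promoters of these genes were read from RefSeq sequences of build GRCm38.p6, from 250 bases before to 50 after the start of each gene. They are shown because the S phase and mitotic genes had medians of opposite sign over all cells, and each group is known for a short promoter motif. In the 3 shallowest quintiles, however, the summed ratios of both groups were below 0. Capitals mark what a search found on either strand. This was TTTGAA, the CHR read by complexes that switch on mitotic genes, in the first 4 promoters, and the E2F motif TTTGGCGC, TTTCCCGC or TTTCGCGC in the last, where matches can overlap. The motifs were chosen after the values were seen.
Pdgfra, chr5:75152001-75152300, plus strand: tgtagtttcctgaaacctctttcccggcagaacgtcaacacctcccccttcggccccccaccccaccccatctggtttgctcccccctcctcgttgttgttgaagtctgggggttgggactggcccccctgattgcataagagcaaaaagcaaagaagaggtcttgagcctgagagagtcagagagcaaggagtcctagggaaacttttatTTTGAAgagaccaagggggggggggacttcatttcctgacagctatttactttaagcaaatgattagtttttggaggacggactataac
Kif26b, chr1:178528875-178529174, plus strand: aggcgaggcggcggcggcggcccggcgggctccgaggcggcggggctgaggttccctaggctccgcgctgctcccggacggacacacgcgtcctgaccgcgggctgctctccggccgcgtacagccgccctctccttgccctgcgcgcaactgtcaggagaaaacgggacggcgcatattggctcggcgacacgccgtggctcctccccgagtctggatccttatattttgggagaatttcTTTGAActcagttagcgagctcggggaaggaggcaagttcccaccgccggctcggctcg
Cdc20, chr4:118437294-118437593, minus strand: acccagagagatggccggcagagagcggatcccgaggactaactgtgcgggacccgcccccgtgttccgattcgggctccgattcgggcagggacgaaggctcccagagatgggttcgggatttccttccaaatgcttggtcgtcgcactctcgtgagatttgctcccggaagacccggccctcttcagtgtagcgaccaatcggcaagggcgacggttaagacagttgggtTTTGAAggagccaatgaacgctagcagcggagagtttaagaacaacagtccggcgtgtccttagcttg
Ube2c, chr2:164769679-164769978, plus strand: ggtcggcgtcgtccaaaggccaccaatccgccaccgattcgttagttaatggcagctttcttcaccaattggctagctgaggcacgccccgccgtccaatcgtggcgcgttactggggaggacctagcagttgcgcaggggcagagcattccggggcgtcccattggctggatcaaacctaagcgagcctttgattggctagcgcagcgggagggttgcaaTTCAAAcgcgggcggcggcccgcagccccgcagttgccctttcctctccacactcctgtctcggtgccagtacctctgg
Mcm6, chr1:128359656-128359955, minus strand: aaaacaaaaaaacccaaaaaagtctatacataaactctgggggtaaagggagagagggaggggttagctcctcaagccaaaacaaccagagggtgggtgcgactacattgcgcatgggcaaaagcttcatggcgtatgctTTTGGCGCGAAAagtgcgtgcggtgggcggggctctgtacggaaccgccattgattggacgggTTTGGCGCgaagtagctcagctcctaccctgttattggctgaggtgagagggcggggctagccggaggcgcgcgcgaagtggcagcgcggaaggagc

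The CHR letters were in 10 of the 15 G2 and mitosis promoters with an entry (66.7%), in 1 of 13 S phase promoters (7.69%), in 11.7% of the 5315 promoters of compared genes and in 18.1% of all 27025. Among called genes with an entry they were in 9 of 35 called higher (25.7%) and 5 of 33 called lower (15.2%). In Cdc20 they began 18 bases before the start, in Ube2c 29 bases before it on the other strand, in Kif26b 9 bases before and in Pdgfra itself 39 bases before. The E2F letters were in 6 of 13 S phase promoters (46.2%) in 4.65% of the promoters of compared genes and in 1.91% of all, with Mcm6 holding 3 matches. They were in 0 of the 35 promoters of genes called higher and 0 of the 33 called lower. The letters GACCACCC (GLI) and TGTTTAC (FOX) and the NF-kB motif were each in at most 1 of the 35 promoters of genes called higher and at most 1 of the 33 called lower. They were in 0.903%, 2.58% and 1.26% of the promoters of compared genes, so these counts say nothing particular of the called genes. A match is a description of these letters and no evidence of binding.

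**Figure D5:**
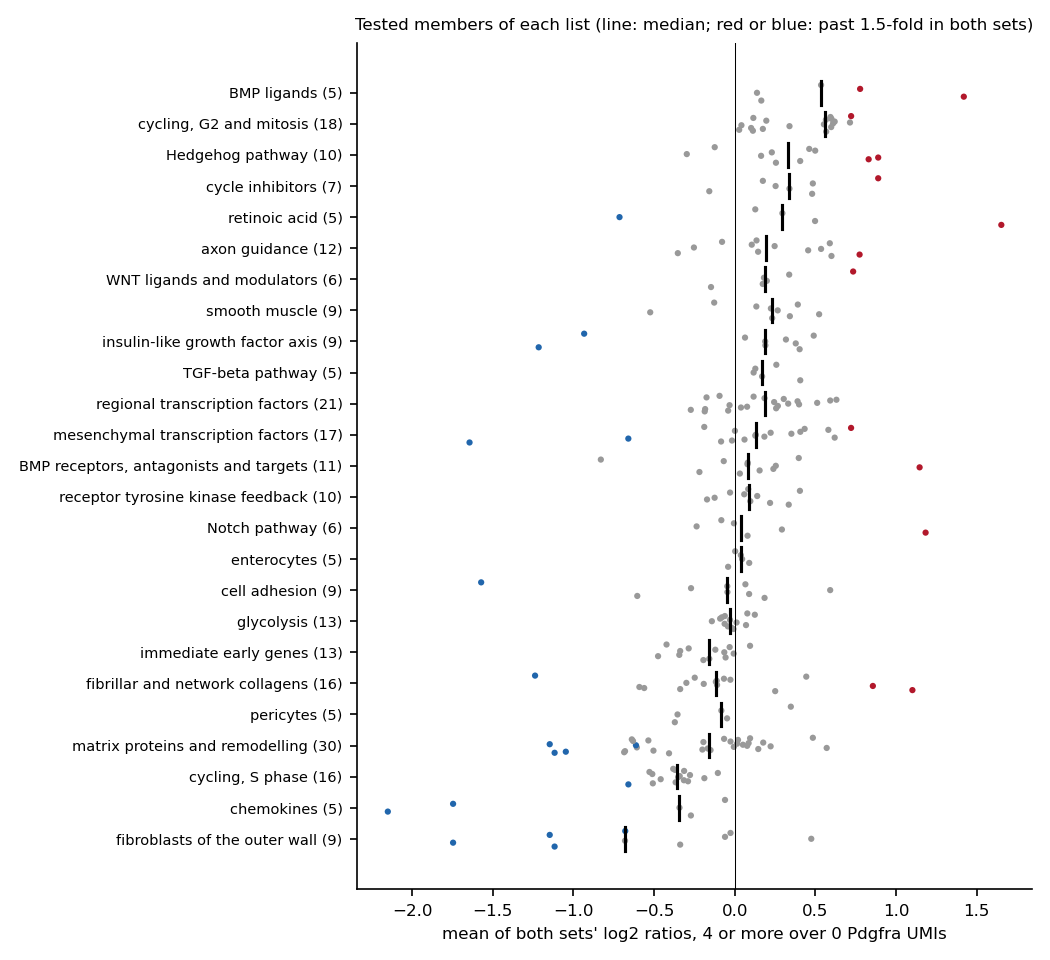
Mean of both sets' log2 ratios at 4 or more over 0 Pdgfra UMIs (horizontal axis) for each compared member of 25 gene lists (rows, number of members in brackets); black lines are medians and coloured points passed 1.5-fold in both sets. The BMP ligands and the G2 and mitosis genes have the highest medians, and the outer-wall fibroblast markers, chemokines and S phase genes the lowest.

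The 4 other suffixes, called sets 3 to 6, held cells the rule did not use, so the same measure was repeated in them with lower limits (at least 4000 UMIs, and 2 or more against 0 Pdgfra UMIs). They held 1149, 1243, 1357 and 670 such cells, which were not filtered by cell type. Depth and class limits differ from those above, so sizes are not compared. Of the genes called higher with enough counts there, 30 of 41, 36 of 41, 36 of 42 and 26 of 40 were above 0, against 46.8%, 51.2%, 50.1% and 48.1% of all genes. Of those called lower, 27 of 34, 32 of 37, 32 of 38 and 20 of 26 were below 0. Set 3 had 27 cells with 0 Pdgfra UMIs, and sets 4 and 5 had 114 and 107 with 2 or more, which limits their precision.

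By gene, Bmp3 had log2 ratios of 1.85, 1.91, 2.31 and 0.01 in sets 3 to 6, Kif26b 2.13, 2.43, 2.41 and 0.69, and Dll1 went from 24.7 to 70.1, from 18.7 to 59.1, from 21.8 to 68.7 and from 44.2 to 78.2 CPM. Gas1 was lower in sets 3, 5 and 6, with -1.87, -1.07 and -1.65, and had -0.02 (-0.62 to 0.59) in set 4. Dcn had -2.34, -0.83, -1.05 and -1.74, Cxcl13 had -3.12, -1.40, -1.85 and -2.86, and Rap2a had -1.05, -1.07, -0.88 and -0.16 (-0.70 to 0.39). Thus the direction of Kif26b, Dll1, Dcn, Cxcl13 and Rap2a was the same in every set, and that of Gas1 was not. Gas1 was not the only named gene to change direction. Among others, Mgp had 1.04 (0.42 to 1.65) in set 5 and Col6a5 1.00 (0.002 to 2.00) in set 3. In set 6 Aldh1a1 had -1.09 (-2.36 to 0.18), and Gadd45a, Uaca and Trp53i11 had -0.13, -0.23 and -0.24, with intervals that included 0. S phase genes were lower for 12, 15, 16 and 16 of 16. The G2 and mitosis genes were higher for 2, 7, 9 and 1 of 18, against 17 in sets 1 and 2. Of the 5 BMP ligands, 5, 5, 5 and 4 were higher.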

How the data were processed

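The data were single-cell 3' RNA counts. The authors deposited 1 matrix of raw UMI counts per gene and cell for all 6 samples (24568 gene symbols, 13127 cells, 6 suffixes), with integer values per the file headers. The submitters' processing notes name Cell Ranger 2.1.1, Seurat and mm10; no source used here gives their roles, the annotation or the cell filter. The 3' chemistry cannot tell overlapping genes or isoforms apart.

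UMIs were summed per class within quintiles of total UMIs in each set and divided by the class total. Quintiles were joined with Mantel-Haenszel weights for the classes with 4 or more and 0 Pdgfra UMIs, so the ratio of standardised CPM is a Mantel-Haenszel rate ratio. Its 95% interval is normal on the log scale. The median over genes of a list is of log2 ratios. Pdgfra was left out of all tests of other genes. Genes with at least 20 CPM in either outer class in both sets were compared, and calls needed 1.5-fold in both. Named were the 15 largest and 15 smallest ratios by the set nearer to 0, list members with up to 4 per direction and the genes a list is named for. Others (Bmp4, Foxf1, Foxf2, Gli1, Id1, Dusp6, Notch2, Notch3, Col3a1, Sparc, Postn, Cdk1, Fgf9, Sox10, Acta2) were chosen after their values were seen. Members and lists were chosen with earlier results of these data known.

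On simulated counts for 6637 genes, 99.5% of 200 genes given a 2-fold change were called the right way, no unchanged gene was called and 95.04% of intervals held the true ratio. The simulated counts held counting error only, with a common rate per gene for all cells of a class and quintile. Real UMIs of some genes sat in few cells, so the simulation cannot show how calls or intervals hold for those genes. Alternatives varied depth standardisation, class limits, filters, cell subsets and sets. Python 3.11.15, numpy 2.4.6, scipy 1.17.1 and pandas 2.3.3 were used. Promoters came from the RefSeq table of build GRCm38.p6; 35 of 45 genes called higher and 33 of 45 called lower had an entry. Depth per cell ran from 10000 to 23996 UMIs.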

Additional observations from a re-analysis of the deposited data

How the results depend on the processing

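Counts of called genes moved with how classes and genes were chosen. The main counts were 45 higher and 45 lower. Without standardisation for depth they were 86 and 70, with 3 or more Pdgfra UMIs as the highest class 22 and 29, and with 6 or more 87 and 57. A minimum of 5000 UMIs gave 79 and 70, one of 15000 UMIs 66 and 25, and a minimum of 50 CPM 18 and 18. With 50 CPM only 3543 genes were compared, so the share was 0.508% each way, against 0.678% in the main setting. Apart from changed CPM minima, every alternative compared 6568 to 6864 genes. Without cells holding Mki67 or Top2a UMIs there were 82 and 125 (1.25% and 1.90%). In cells with Xist and no Y-linked UMIs there were 79 and 98 (1.19% and 1.47%), and with Y-linked and no Xist UMIs 62 and 26 (0.934% and 0.392%). The smallest outer classes of these subsets held 42, 74 and 147 cells. A rule on fold alone can pass more genes by counting error in small classes, and that part was not tested. Set 1 alone gave 126 and 81, set 2 alone 116 and 97, where 1 set had to pass the fold. Of the 90 called genes at least 83 kept their sign in each alternative, and 89 or 90 in all but the one without Mki67 or Top2a cells. Fewer were called again: 30 of the 45 higher and 13 of the 45 lower at 15000 UMIs, 31 and 15 in cells with Y-linked and no Xist UMIs, 24 and 37 in those with Xist alone, 18 and 30 without Mki67 or Top2a cells, 28 and 29 in thinned cells and 19 and 35 without PDGFRA-high marker cells. Col6a5 turned from -1.24 to 0.97 at a minimum of 15000 UMIs, where the outer-wall fibroblast median was 0.04 in place of -0.45. For the 30 genes with the largest ratios, 521 values moved by less than their counting interval and 168 by more. List medians moved by less than the SD between the sets in 393 cases and by more in 182. A changed CPM minimum could not move any gene value or list median, because the cells were the same. For a single set the list median could only stay within that SD. Such cases are counted among the 521 and the 393. Called genes could not lose their sign in either kind of alternative.

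The causes of these shifts were not tested. Alternatives chosen after seeing the data were the omission of the deepest quintile, the 8-marker filter and quintiles crossed with 3 levels of the S phase, mitotic or smooth muscle share. The last replaced a planned omission of cells with 3 or more smooth muscle UMIs, which left 1 cell (median 26 UMIs of that list per cell). Crossing with the S phase share brought the mitotic median to 0.04 and the S phase median to -0.03. The levels were cut on the summed S phase genes themselves, so their own median was bound to move towards 0. No paired analysis was possible because no barcode suffix is tied to a sample or replicate number. Genes under 20 CPM were not compared, and differences between embryos cannot be seen.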

Other observations

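Genes that mark position along the gut and the body axis were also read out. None of 21 compared regional transcription factors was called, 13 were higher in both sets and 5 lower, where 39.5% and 28.3% of all compared genes were. Hoxc8, a posterior Hox gene, went from 49.1 to 64.1 and from 52.8 to 96.8 CPM between 0 and 4 or more Pdgfra UMIs, Hoxc6 from 35.6 to 51 and from 39.2 to 62.2 CPM and Hoxb8 from 26.1 to 36.8 and from 38.1 to 54.8 CPM. Of the more anterior genes, Hoxa4 had log2 ratios of -0.26 and -0.28 and Hoxa5 of -0.23 and -0.14. Gut segment and age could not be assigned to these cells, so their part was not tested.

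Among 9 compared smooth muscle genes none was called and 7 were higher in both sets (39.5% of all compared genes were). Acta2, smooth muscle actin, stood at 919.6, 908 and 998 CPM in set 1 and 856, 957 and 1087 CPM in set 2 in the order of rising Pdgfra, while Des, the intermediate filament desmin, had log2 ratios of -0.56 and -0.49. Of 13 glycolysis genes none was called, with list medians of -0.05 and 0.01.

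Pdgfra lies on chromosome 5 (GENCODE M21 annotation of build GRCm38, 75152292 to 75198215, plus strand). Chic2, whose annotated end lies 107.5 kb away, went from 77.3 to 116 CPM in set 1 and from 90.7 to 117 CPM in set 2, log2 ratios of 0.59 (0.39 to 0.79) and 0.37 (0.18 to 0.56). Kit, the receptor kinase on the other side, stood at 8.20 and 8.19 CPM in set 1 and 5.48 and 5.95 CPM in set 2. Chic2 was looked up after the main values were seen.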
